A study of Mus musculus with 23 samples.

Results

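Sympathetic postganglionic neurons have their cell bodies in the paravertebral and prevertebral ganglia, which lie beside the aorta, and send noradrenergic fibres into its outer wall. These neurons make noradrenaline from tyrosine with Th, Ddc and Dbh, load it into vesicles with Slc18a2 and take it back up with Slc6a2, and many store Npy beside it. Messenger RNA is held mainly in the cell body, whereas fibres carry little, so transcripts of these genes in an aortic extract point to cell bodies in the sample. The 23 aortas were sorted here by such transcripts. For each array the log2 signals of Th, Dbh, Npy and Snap25, a membrane fusion protein of nerve endings, were averaged over the brightest probe set of each gene, and an array was called ganglion-rich when this marker score was more than 1 log2 unit above the median of all 23. Under this rule 7 of the 23 arrays were ganglion-rich and 16 were not.

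All animals were male ApoE-/- mice of the C57BL/6J strain, 8 weeks old when obtained and kept on high-fat feed, so that the loss of ApoE and the diet were shared by every group. The groups were normoxia for 8 weeks (Nor 8W, n = 5), chronic intermittent hypoxia for 8 weeks (CIH 8W, n = 5), normoxia for 12 weeks (Nor 12W, n = 5), chronic intermittent hypoxia for 12 weeks (CIH 12W, n = 4), and chronic intermittent hypoxia for 8 weeks and then normoxia for 4 weeks (CIH 8W+Nor 4W, n = 4). In chronic intermittent hypoxia the oxygen in the chamber falls and recovers in short repeated cycles, as it does in the blood of patients with sleep apnea. Aortic RNA was hybridised to Clariom D arrays, and 65956 gene-level probe sets gave 1 log2 signal per array. Each array was taken as 1 animal, since the labels call the samples biological replicates. Between 27.3% and 35.9% of the probe sets of an array were above background. How far the aortas were freed of surrounding tissue is not stated in the sources used here.

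The ganglion-rich arrays were not spread evenly over the groups. Nor 8W held 1, CIH 8W held 2 and Nor 12W held 4, against 0 of 4 in both CIH 12W and CIH 8W+Nor 4W. The score was 15.77 in Nor 8W replicate 3, 13.55 in Nor 12W replicate 3, 12.03 in Nor 12W replicate 4, 10.17 in CIH 8W replicate 3, 9.12 in CIH 8W replicate 5, 6.42 in Nor 12W replicate 5 and 5.95 in Nor 12W replicate 1. The median of all arrays was 4.89. The first 5 of these arrays were between 4.22 and 10.88 above the median, whereas Nor 12W replicate 1 was above it by 1.05 and only just inside the rule. The nearest arrays outside it were Nor 8W replicate 1, at 0.88 above the median, and CIH 8W replicate 2, at 0.53. The values therefore formed a graded series with a wide step between 1.53 and 4.22. Nor 12W kept only replicate 2 as an array that was not ganglion-rich.

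**Figure D1:**
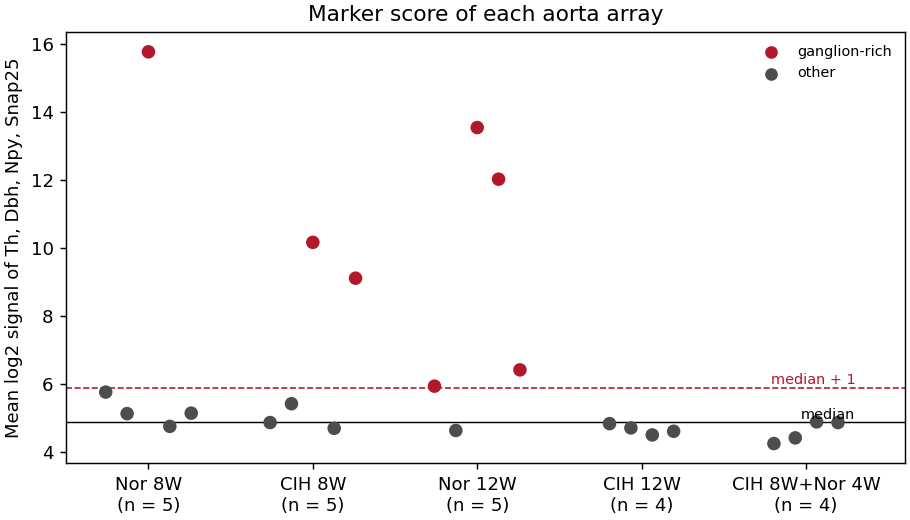
Marker score (mean log2 signal of Th, Dbh, Npy and Snap25) of each array, by group. Each point is 1 aorta, red points are the 7 ganglion-rich arrays, the solid line is the median of 4.89 and the dashed line is 1 unit above it.

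The ganglion-rich arrays were chosen by the signals of these 4 genes, so their own levels are a description and carry no test, and their probe sets stay out of every count below. Th, the rate-limiting enzyme of catecholamine synthesis, ranged from 4.65 to 14.84 (median 8.15) in the ganglion-rich arrays and from 3.67 to 4.84 in the others. Dbh, which turns dopamine into noradrenaline, ranged from 5.71 to 16.35 (median 10.68) against 3.80 to 5.56. Npy, the cotransmitter peptide, ranged from 8.03 to 16.03 (median 12.02) against 5.44 to 8.49, so that CIH 8W replicate 2 with 8.49 lay above 2 of the ganglion-rich arrays. Snap25 ranged from 5.40 to 15.87 (median 9.84) against 4.06 to 5.37. Background is the 95th percentile of the 23 background probe sets of each array (4.64 to 5.50). Th was not above it on any of the 16 other arrays. Among the ganglion-rich arrays, Th was also not above background in Nor 12W replicate 1 (4.65 against 4.98) and Nor 12W replicate 5 (5.139 against 5.147). Nor 12W replicate 1 lay below Nor 8W replicate 1 of the other arrays, at 4.84. In RNA of a whole vessel, a lower level through fewer neurons and a lower level through less RNA per neuron cannot be told apart.

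The stretches upstream of 4 noradrenergic and granule genes are shown. Several such genes carry a cAMP response element, TGACGTCA, the site bound by CREB, close to their start. Whether the element has a part in their levels across the arrays was not tested. Each run gives the 120 bases before the gene's start (for Slc18a2 also the 4 bases after it), 5′ to 3′ on the gene's strand, from RefSeq on GRCm38.p6, with the element in capitals.
Th, chr7:142899996-142900115, minus strand: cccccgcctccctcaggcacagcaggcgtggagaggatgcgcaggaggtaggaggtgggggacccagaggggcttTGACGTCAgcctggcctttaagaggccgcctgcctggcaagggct
Scg2, chr1:79440027-79440146, minus strand: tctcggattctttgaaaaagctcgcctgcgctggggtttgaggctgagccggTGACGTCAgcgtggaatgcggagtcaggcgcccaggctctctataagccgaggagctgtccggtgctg
Slc18a2, chr19:59260758-59260881, plus strand: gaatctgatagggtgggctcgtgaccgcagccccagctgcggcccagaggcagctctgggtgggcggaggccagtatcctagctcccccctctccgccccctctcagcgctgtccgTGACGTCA
Dbh, chr2:27165387-27165506, plus strand: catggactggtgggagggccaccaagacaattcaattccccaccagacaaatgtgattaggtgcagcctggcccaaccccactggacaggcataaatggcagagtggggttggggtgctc
The element begins at position -45 in Th, -68 in Scg2 and -4 in Slc18a2, counted from the gene's start, and its 8 letters do not occur in the promoter window of Dbh. It reads the same on both strands. It stood in 507 of 27025 promoter windows of the table (1.88%), in 2 of the 29 windows matched for genes called higher below outside the snoRNA locus (Slc18a2 and Zwint), and in 14 of the 291 matched for genes called higher with the 5 strongest arrays (4.81%), among them Scg2, Chgb, Pcsk1, Syn1 and Tubb2a. The second part of the silencer element of neuronal genes, GGACAGC read on both strands, stood in 6.59% of all windows and in 28 of the same 291 (9.62%). Its first part, TTCAGCACC, stood in 0.359% and in 8 of the 291 (2.75%), and both parts in a row in 6 of all windows and in 0 of the 291. These counts describe letters in a window and were not tested.

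Apart from the 4 marker genes, 254 of 65952 probe sets (0.385%) were higher in the ganglion-rich arrays and 8 (0.0121%) were lower, at an adjusted p under 0.05 and a fold change over 1.1 (limma with the group as covariate, Benjamini-Hochberg over all probe sets). Since the arrays were sorted by neuronal genes, these calls describe which other transcripts went with those genes across aortas, not a treatment. Of the 254, 191 carry only gene names from a single imprinted snoRNA locus, described below, and 63 do not. Of these 63, 20 carry no gene name, and the identifiers of 12 of the 20 run between those of the locus (the chromosome number in an identifier matched RefSeq for 99.7% of 28134 named probe sets on autosomes), so that only 51 probe sets are described below as lying elsewhere. When only the 5 arrays more than 2 units above the median were set against the other 18, 747 probe sets (1.13%) were higher and 31 (0.047%) lower, of which 549 of the higher ones carry no name from the locus and 534 also have no identifier beside it. Among genes with 1 symbol, the share called higher was 0.669% of 30172 in the first comparison and 1.84% in the second. With the same fold and no adjustment of p, 2619 probe sets (3.97%) were higher and 1716 (2.6%) lower.

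A single aorta led nearly all of these genes. Nor 8W replicate 3 had the highest signal of all arrays for 45 of the 51 probe sets elsewhere and for 190 of the 191 of the locus. Without it, 184 probe sets were called higher, 16 of them elsewhere. The 15 genes of the neuronal and glial lists described below as called then kept 1 call, Stmn3, and the other 14 had adjusted p-values of 0.237 to 0.361 by limma. The same 14 lost their call over only the 3 groups that hold ganglion-rich arrays (0.207 to 0.396) and with array weights (0.0541 to 0.151). Without CIH 8W replicate 3, 11 of the 15 lost it (0.0569 to 0.0877), and without the single Nor 12W array outside the class, replicate 2, 9 did (0.0510 to 0.136). Leaving out any other single array took the call from 0 to 8 of the 15. Without the 2 ganglion-rich arrays nearest the threshold, 12 did (0.0543 to 0.1303). Without CIH 8W replicate 5, the weakest of the 5 strong arrays, 350 were called, 141 of them elsewhere, and without Nor 12W replicate 1, nearest the threshold, 321 and 114. The 2 weakest ganglion-rich arrays had little neuronal signal of their own. Nor 12W replicate 1 lay above all 16 other arrays for 11 of the 51 probe sets elsewhere and Nor 12W replicate 5 for 19. All 7 ganglion-rich arrays lay above all 16 others for 7 of the 51, against 0.271% of all probe sets.

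Genes of noradrenaline synthesis, storage and reuptake were higher. Of the 10 measured members beside Th and Dbh, 4 were called higher and 0 lower, with a median log2 difference of 1.20 against -0.0053 over all probe sets. Slc6a2, the noradrenaline transporter that defines these neurons, ranged from 4.62 to 13.33 (median 7.27) in the ganglion-rich arrays and from 4.16 to 4.71 (median 4.43) in the others. The highest 6 of the 7 ganglion-rich arrays lay above all others and Nor 12W replicate 1 did not. The log2 difference was 4.29 ± 0.90 (SE, adjusted p = 0.0355 by limma). Where a gene was not above background on any of the 16 other arrays, as here, the fold is given as a bound. For it, the higher of background and the measured signal was taken on each of those arrays. The bound compares plain means of the 7 and the 16 arrays without the group covariate, whereas the adjusted p-values come from the model. For Slc6a2 it was at least 7.23-fold. The log2 differences printed for such genes are of measured signals that lie partly below background, and no fold is read from them. Slc18a2, the vesicular monoamine transporter, ranged from 5.04 to 12.48 (median 7.69) against 4.64 to 5.18, a log2 difference of 3.97 ± 0.78 (limma, adjusted p = 0.0198). Ddc, which forms dopamine, ranged from 4.23 to 11.58 (median 6.64) against 3.64 to 4.06, with no overlap, and was at least 4.04-fold higher (limma, adjusted p = 0.0433). Maoa, which breaks monoamines down in mitochondria and is also made by the vessel itself, was well above background everywhere, at 10.56 to 15.05 (median 11.83) against 9.53 to 10.52. Its log2 difference was 2.43 ± 0.50 (limma, adjusted p = 0.0285). Gch1, which makes the cofactor that Th needs, and Slc18a1, the second vesicular transporter, were called only with the 5 strongest arrays, with log2 differences of 1.24 ± 0.26 and 1.35 ± 0.25 (limma, adjusted p = 0.0151 and 0.00654).

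Part of the called genes followed the order of the marker score. Of the 51 called probe sets elsewhere, 13 had the 5 strongest arrays in exactly the order of the marker score, against 1.91% of all probe sets. The score itself set the classes, so this order is a description. Within a condition, the log2 difference of Slc6a2 was 8.88 for Nor 8W, where 1 ganglion-rich array stood against 4 others. It was 2.14 for CIH 8W (2 against 3) and 2.93 for Nor 12W (4 against 1). These values have no test of their own.

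**Figure D2:**
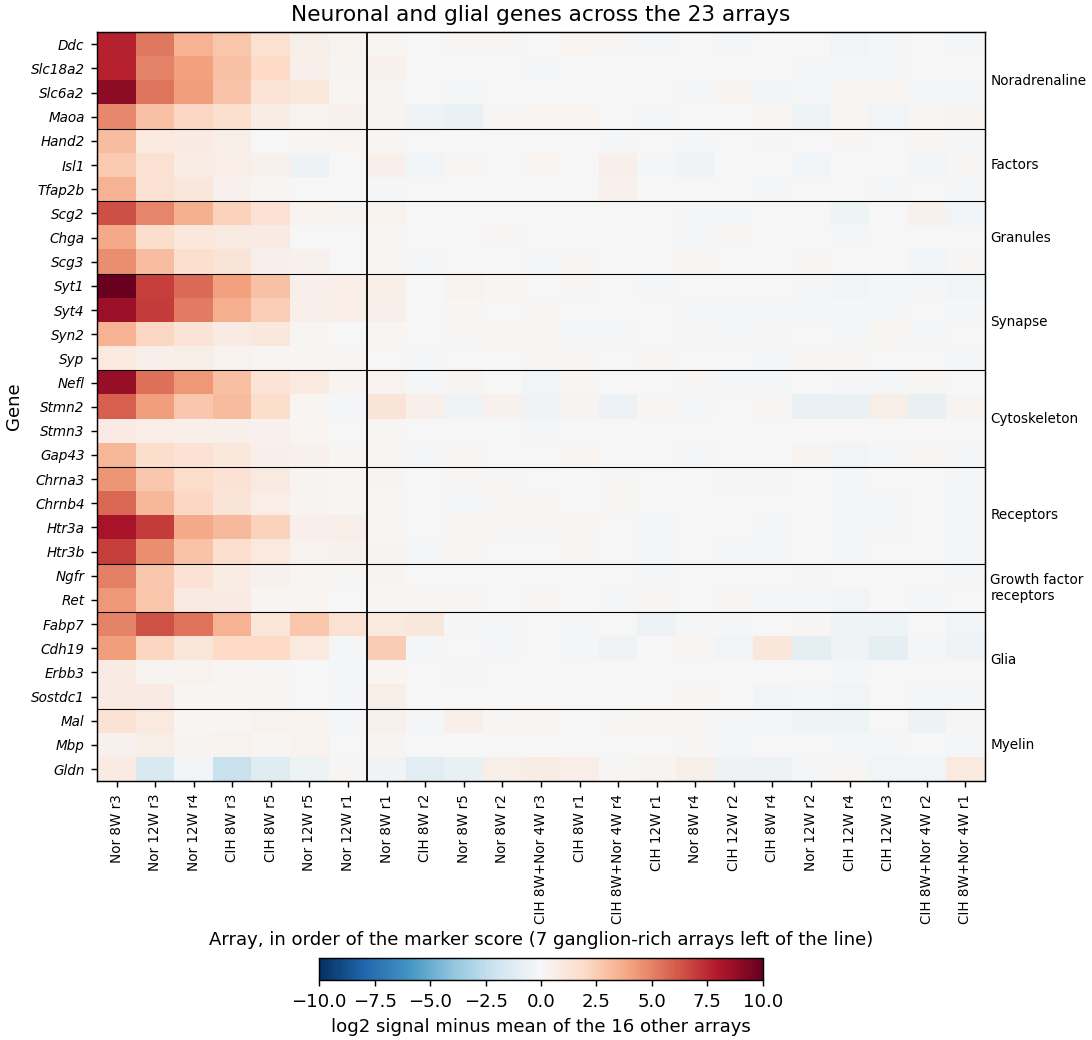
Log2 signal of neuronal and glial genes on the 23 arrays minus the mean of the 16 other arrays, with arrays in the order of the marker score and r standing for replicate. Red fades from left to right across the 7 ganglion-rich arrays for most neuronal genes, whereas Fabp7 is highest in Nor 12W replicate 3 and Cdh19 is also high in Nor 8W replicate 1.

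Synaptic vesicle and membrane fusion proteins, which release transmitter at nerve endings, had 4 of 23 measured members beside Snap25 called higher and 0 lower (median log2 difference 0.50), and 15 of 23 with the 5 strongest arrays. Over all genes with 1 symbol, the share called higher was 0.669% with the 7 arrays and 1.84% with the 5 strongest. The counts of all lists stand beside these shares. Syt1, the calcium sensor of vesicle release, ranged from 4.38 to 13.76 (median 7.93) against 3.60 to 4.40 in the others. Its 5 strongest values, from 6.79 upward, stood clear of all 18 remaining arrays, which reached 4.50. The log2 difference was 5.27 ± 1.02 (limma, adjusted p = 0.0171), at least 9.58-fold. Syt4, a related vesicle protein, ranged from 3.78 to 11.77 against 3.05 to 3.77 and was at least 4.82-fold higher (limma, adjusted p = 0.0224). Syn2, which tethers vesicles to the cytoskeleton, had a log2 difference of 1.62 ± 0.35 (limma, adjusted p = 0.0476). Syp, an abundant vesicle membrane protein, had one of 0.50 ± 0.10 (limma, adjusted p = 0.0258), although its probe set was below background on all 16 other arrays and on 5 of the 7 ganglion-rich ones. Rab3c and Cadps, of vesicle docking and priming, were called only with the 5 strongest arrays, at 3.30 ± 0.47 and 2.82 ± 0.46.

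The neuronal cytoskeleton had the highest median of the neuronal lists, 1.36, with 3 of 17 measured members called higher and 14 of 17 with the 5 strongest arrays. Nefl, the light neurofilament chain, ranged from 3.91 to 12.36 (median 6.64) against 3.39 to 4.03. It was at least 4.40-fold higher (limma, adjusted p = 0.038). Stmn2, a tubulin regulator of growing neurites, was above background on every array, at 9.49 to 15.59 (median 12.35) against 8.92 to 10.92, so that Nor 12W replicates 1 and 5 lay within the range of the others. Its log2 difference was 3.23 ± 0.66 (limma, adjusted p = 0.0296). Stmn3 was called as well, at 0.53 ± 0.08, but was not above background on any array. Prph, a filament protein of peripheral neurons, ranged from 3.95 to 10.04 (median 5.31) against 3.71 to 4.15. Tubb3, the neuronal tubulin, ranged from 5.44 to 11.52 (median 6.44) against 4.86 to 5.76. Both were called only with the 5 strongest arrays, at 2.95 ± 0.45 and 2.97 ± 0.51 (limma, adjusted p = 0.00062 and 0.0026).

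Receptors of ganglionic transmission had 2 of 16 measured members called higher (median 0.49) and 8 of 16 with the 5 strongest arrays. The fast synapse onto a sympathetic neuron uses a nicotinic receptor built from Chrna3 with Chrnb4. Chrna3 ranged from 4.00 to 8.29 (median 5.27) against 3.61 to 4.11 and was at least 1.46-fold higher (limma, adjusted p = 0.0334). Chrnb4 ranged from 3.48 to 9.11 (median 4.65) against 3.22 to 3.47, with no overlap, and had an adjusted p of 0.105 with all 7 arrays and of 0.00127 with the 5 strongest (limma). Htr3a, a serotonin-gated ion channel subunit, ranged from 3.77 to 11.56 (median 6.50) against 3.07 to 3.51 and was at least 3.97-fold higher (limma, adjusted p = 0.0374). Its partner Htr3b ranged from 3.75 to 10.30 against 3.26 to 3.68, called only with the 5 strongest arrays (3.49 ± 0.51, limma, adjusted p = 0.00041). Chrm2, a muscarinic receptor, was called in that comparison too, at 1.38 ± 0.19.

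Several neuronal lists held 0 calls with 7 arrays by limma. Over all probe sets, 3.97% were higher and 2.6% lower at an unadjusted p under 0.05 and the same fold. Dense-core granule proteins and peptides had 0 of 17, with 10 higher and 0 lower at an unadjusted p under 0.05, and 7 of 17 with the 5 strongest arrays. Among them Scg2, a granule protein cut into peptides, ranged from 4.20 to 10.34 (median 6.17) against 3.47 to 4.29 and missed the threshold with all 7 arrays (limma, adjusted p = 0.0508), whereas the 5 strongest gave 3.78 ± 0.44 (limma, adjusted p = 5.63e-05). Chga, the classic granule marker, gave 1.79 ± 0.28 and Scg3 2.31 ± 0.37 in the same comparison. Pan-neuronal and RNA-binding proteins had 0 of 13 with 7 arrays (9 at unadjusted p) and 9 of 13 with 5, and voltage-gated channels 0 of 20 (13 at unadjusted p) and 5 of 20. Transcription factors of the sympathetic lineage had 0 of 9 with 7 arrays (7 at unadjusted p) and 4 of 9 with 5. Hand2, which maintains the noradrenergic identity, was at 6.52 in Nor 8W replicate 3 and at 3.51 to 4.45 in the other 6 ganglion-rich arrays, against 3.34 to 3.70 in the 16 others. Isl1, Tfap2b and Hand1 were the other 3 factors called with 5 arrays, at 1.41 ± 0.22, 1.50 ± 0.29 and 0.84 ± 0.20. Receptors of neurotrophins and the GDNF family had 0 of 9 (4 at unadjusted p) and 2 of 9, Ngfr at 2.17 ± 0.41 and Ret at 1.95 ± 0.38.

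Glial genes did not follow the neurons exactly. In a ganglion every neuron is wrapped by satellite glia, while Schwann cells line the fibres. Of 14 measured genes of satellite glia and Schwann cell identity, 2 were called higher (median 0.23), and 4 with the 5 strongest arrays. Fabp7, a fatty acid carrier of satellite glia and immature Schwann cells, ranged from 6.14 to 11.35 (median 8.45) against 4.44 to 6.08, with no overlap. It was highest in Nor 12W replicate 3 and Nor 12W replicate 4 (11.35 and 10.40), ahead of Nor 8W replicate 3 (9.91), and it was at 7.72 in Nor 12W replicate 5, above CIH 8W replicate 5 at 6.14. The log2 difference was 3.36 ± 0.67 (limma, adjusted p = 0.0234). Cdh19, a cadherin of the Schwann cell lineage, ranged from 5.68 to 10.02 (median 7.82) against 4.92 to 8.35, and the groups overlapped. The highest of the others was Nor 8W replicate 1 at 8.35. Its log2 difference was 2.30 ± 0.44 (limma, adjusted p = 0.0157). The same Nor 8W replicate 1 had the highest signal of all arrays for Scn7a, a sodium channel of Schwann cells, at 14.09, and a mean of the glial list of 6.43, above 4 of the 7 ganglion-rich arrays, whereas its Syt1 was 4.40. Sox10, the transcription factor of both glial types, was not above background on any array. Myelin genes had 0 of 13 called by limma, with 2 higher at an unadjusted p under 0.05 and a median of 0.027. Mbp was at 4.19 to 4.83 against 4.07 to 4.50, and Gldn, which gathers channels at the node of Ranvier, at 5.19 to 8.22 against 6.37 to 8.41 (log2 difference -0.49 ± 0.40, limma, adjusted p = 0.87).

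Other neuron classes were checked by their defining genes. Of 5 cholinergic genes, 0 were called by limma and 1 (Ache, the acetylcholine esterase that sympathetic neurons also make) passed at an unadjusted p and with the 5 strongest arrays (2.73 ± 0.44). Chat, Slc5a7 and Slc18a3, of acetylcholine synthesis and storage, were not above background on any array. Of 12 sensory neuron genes, 0 were called by limma (1 higher at an unadjusted p, Avil). With the 5 strongest arrays, 1 of the 12 was called higher. Of 8 adrenal genes and of 8 genes of brain glia and forebrain neurons, 0 were called by limma and 0 passed at an unadjusted p, and Pnmt, which makes adrenaline in chromaffin cells, stayed at 3.73 to 3.89 against 3.56 to 4.01. With the 5 strongest arrays, the adrenal and brain lists held 0 calls. Slc18a1, counted above among the noradrenaline genes, was called with those arrays. Sympathetic ganglion is used as the name for the arrays with high scores, and a share of other neuron classes or adrenal cells in them was not tested. For Nor 12W replicate 1 and Nor 12W replicate 5, most neuronal genes lay near the other arrays, as given above.

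**Figure D3:**
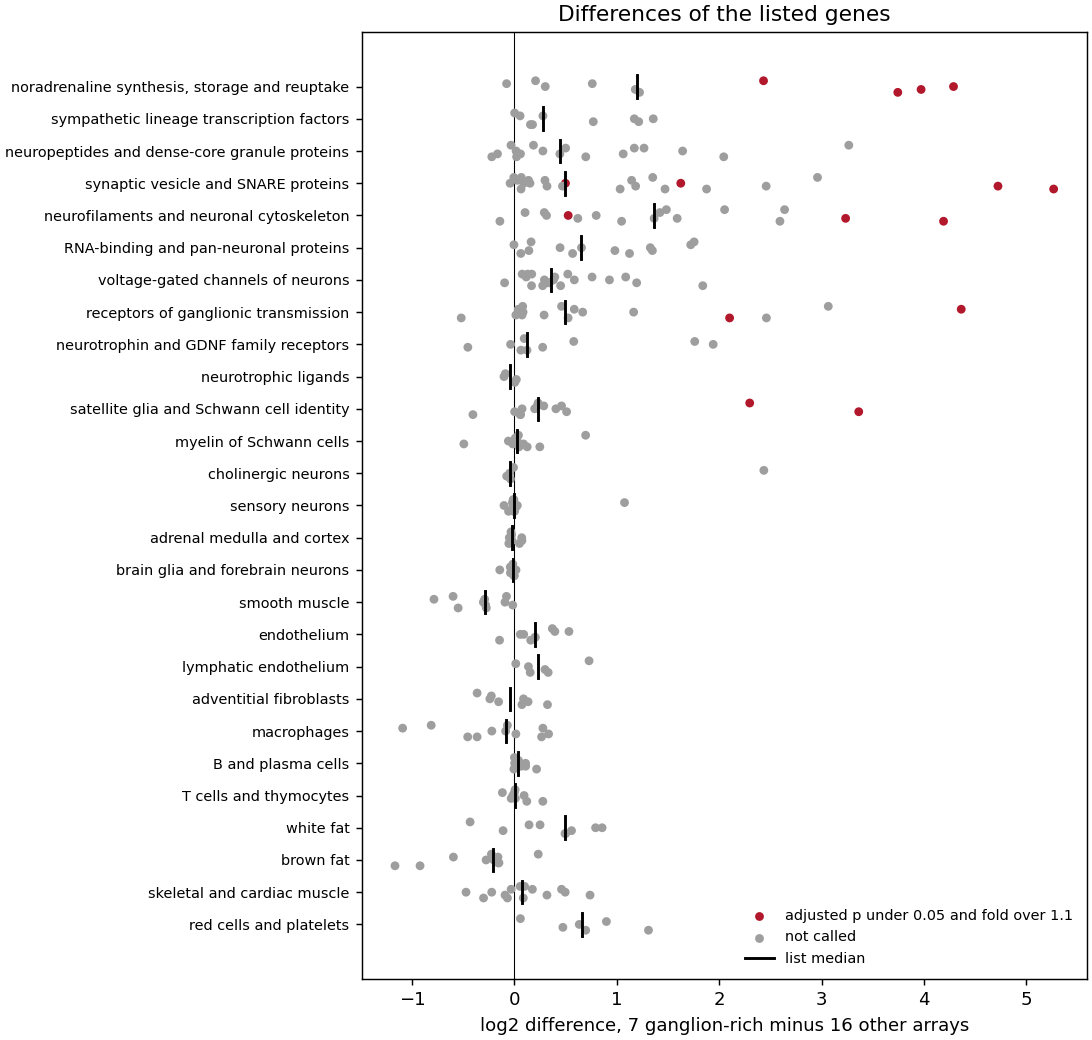
Log2 difference between the 7 ganglion-rich and the 16 other arrays for each measured gene of 27 lists, with the list median as a black bar and called genes in red. All 15 called genes lie in the noradrenaline, synapse, cytoskeleton, receptor and glial identity lists, and the vessel, blood, fat and muscle lists hold none.

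The lists of vessel, blood, fat and muscle cells held no called gene. Of 10 smooth muscle genes, 0 were called by limma (0 higher and 1 lower at an unadjusted p), with a median log2 difference of -0.29, and the list mean was 13.92 to 15.31 in the ganglion-rich and 14.83 to 15.45 in the other arrays, with CIH 8W replicate 3 the lowest and Nor 12W replicate 3 next at 14.15. Endothelium had 0 of 9 (0 at unadjusted p, median 0.20), adventitial fibroblasts 0 of 8 (0 at unadjusted p, median -0.041) and macrophages 0 of 11 (0 at unadjusted p, median -0.086). Lymphatic endothelium had 0 of 6 called, but 2 were higher at an unadjusted p. All 6 of its differences were positive, against 49.6% of all genes with 1 symbol. Its median was 0.23, and 0.28 with the 5 strongest arrays. The macrophage mean was 8.85 in Nor 8W replicate 3, below all other arrays (10.58 to 13.50). White fat had a median of 0.49 with 0 of 9 called (1 at unadjusted p), and red cells and platelets one of 0.66 with 0 of 6 called (0 at unadjusted p). Nor 12W replicate 5 had the highest mean of both lists, 13.15 for white fat and 9.95 for red cells, and Nor 12W replicate 3 and CIH 8W replicate 3 had red cell means of 8.66 and 8.19 against 5.15 to 6.88 in the 16 others. With the 5 strongest arrays the medians of white fat and of red cells and platelets were -0.0039 and 0.17. Brown fat had 0 of 10 called (0 at unadjusted p), with a median of -0.21, and of -0.61 with the 5 strongest arrays. The part of these tissues in the calls was not tested.

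Among the other named genes called higher outside the lists, chosen after their values were seen, some are neuronal. Rit2, a small GTPase of neurons, ranged from 3.58 to 7.03 against 3.29 to 3.58, not above background, and was at least 1.19-fold higher (limma, adjusted p = 0.0087). Nsg1, an endosomal protein of neurons, was at 6.78 to 10.37 against 6.40 to 7.11 (1.73 ± 0.38, limma, adjusted p = 0.0484). Rtn1, a reticulon of the endoplasmic reticulum, was at 4.96 to 6.47 against 4.68 to 5.12 (0.98 ± 0.14, limma, adjusted p = 0.000808). It was above background on 6 of the 7 ganglion-rich arrays and on 5 of the 16 others. Agtr1a, the angiotensin II receptor, was at 4.71 to 7.20 in the ganglion-rich arrays and was not above background on any other array, where it reached 4.97. It was at least 1.47-fold higher (limma, adjusted p = 0.0476). Others are known from vessels. Ackr1, the chemokine receptor of venular endothelium, gave 0.72 ± 0.11 and Abcb1a, an efflux pump of endothelium, 0.95 ± 0.17 (limma, adjusted p = 0.00164 and 0.00577). Ackr1 lay near background, at 4.51 to 5.48 against 4.20 to 4.95. It was above background on 4 of the 7 ganglion-rich arrays and on 2 of the 16 others. The difference of Ackr1 was nearly the same in each condition (0.74, 0.76 and 0.63 within Nor 8W, CIH 8W and Nor 12W), and that of Rit2 was 3.50, 1.55 and 1.47. The endothelial list mean was highest in CIH 8W replicate 3 (11.41) and reached 10.67 in the 16 others, and its part in these values was not tested.

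By far the most probe sets came from the imprinted region between Ube3a and Snrpn. In the mouse a long transcript of the paternal chromosome runs through this region in neurons, and its introns are cut into tandem copies of small nucleolar RNAs (the snoRNA families of the Prader-Willi and Angelman region) around the noncoding gene Ipw. RefSeq on GRCm38.p6 places 210 genes between Ube3a and Snrpn, 207 of them snoRNAs or snRNAs, and 204 probe sets were assigned to it by gene name. This region was singled out after its values were seen. Many copies are nearly identical and share probes, so that the 204 probe sets hold only 83 distinct rows of values, and the copies cannot be separated. Of the 204, 191 were called higher and 0 lower, and the 5 strongest arrays were in the order of the score for 132 of the 204 (64.7%). The 191 hold only 71 distinct rows of values, against 63 for the calls outside the region. The counts of probe sets given for the region include these repeats. Among snoRNA genes with 1 symbol, 159 of 170 in the region were called higher, with a median log2 difference of 4.19. Elsewhere in the genome 0 of 789 were called by limma (21 higher and 13 lower at an unadjusted p, 2 higher with the 5 strongest arrays), with a median of 0.022.

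The most changed copy, Gm22046, shares its values with Gm25210, Gm25471 and Gm26032. It was at 14.24 in Nor 8W replicate 3, 12.26 and 11.13 in Nor 12W replicates 3 and 4, 10.83 and 9.32 in CIH 8W replicates 3 and 5, and 8.54 and 7.64 in Nor 12W replicates 5 and 1. The 16 other arrays lay between 3.92 and 7.17 (median 4.81). The 12 unnamed probe sets with identifiers beside the region had log2 differences of 0.84 to 5.46, and 5 of them had all 7 ganglion-rich arrays above all others. For Gm22046 the 7 also lay above all others, and the log2 difference was 5.73 ± 0.76 (limma, adjusted p = 0.000566). Within conditions Nor 8W gave 8.38, CIH 8W gave 4.11 and Nor 12W gave 5.51. Among genes in no list that were called higher with all 7 ganglion-rich arrays above all others, the 20 with the highest differences were all copies from this region, from 4.91 to 5.73.

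The region was not uniform. Between Ube3a and Ipw, 125 of 135 probe sets were called higher, with a median log2 difference of 4.19, and their mean signal was 4.73 to 8.88 in the ganglion-rich arrays against 3.17 to 4.54. Between Ipw and Snrpn, 34 of 37 were called (median 4.65), at 6.18 to 11.57 against 3.94 to 5.78. Of the probe sets that carry Ipw, 31 of 31 were called (median 5.52), although they hold only 3 distinct rows of values. The neighbours behaved otherwise. Ube3a, which is expressed from both copies outside neurons, was at 10.24 to 10.64 against 10.16 to 10.78 (log2 difference 0.11 ± 0.09). Snrpn and Snurf, on 1 shared probe set, were at 7.54 to 10.74 (median 7.94) against a median of 7.73 and a highest value of 8.06, and were called only with the 5 strongest arrays (1.22, limma, adjusted p = 0.0414). Ndn, a paternally expressed gene of neurons beyond Snrpn, was at 9.58 to 12.74 (median 10.75) against 9.33 to 10.67, called in neither comparison (1.04 ± 0.35, limma, adjusted p = 0.363 with 7 arrays). Magel2 and Mkrn3 were not above background on any array.

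**Figure D4:**
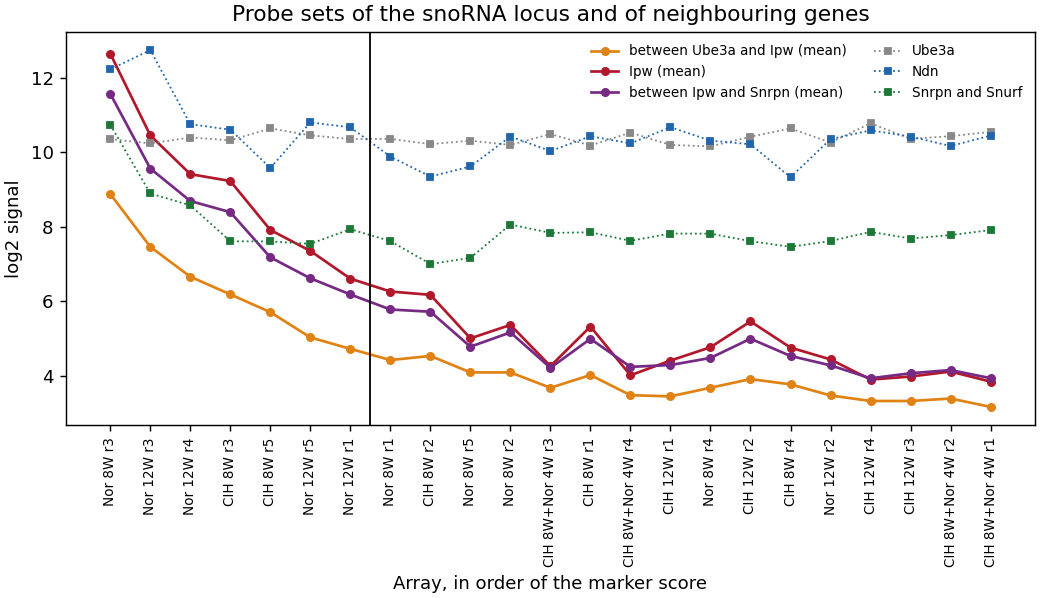
Mean log2 signal of the distinct probe sets of the snoRNA region in 3 blocks, and of Ube3a, Ndn and the shared probe set of Snrpn and Snurf, on the 23 arrays in the order of the marker score (r stands for replicate). The 3 blocks fall with the score through the 7 ganglion-rich arrays left of the line and on into the next arrays, whereas Ube3a stays between 10.16 and 10.78.

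Very few transcripts were lower. Of the 8 probe sets called lower, 0 carry a single gene name (limma), their log2 differences lay between -0.52 and -0.27, and 7 of the 8 were not above background on any array. The strongest single-symbol genes in that direction missed the threshold. Among them Tmem98, a membrane protein, was above background on all 23 arrays (8.35 ± 0.14, SD, n = 7, against 8.83 ± 0.18, n = 16, log2 difference -0.38 ± 0.09, limma, adjusted p = 0.1003). Of 645 miRNA genes, 0 were called by limma in either direction (10 higher and 21 lower at an unadjusted p, 0 higher with the 5 strongest arrays).

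The comparisons between conditions were recomputed with and without the ganglion-rich arrays, since 4 of the 5 Nor 12W arrays and none of the CIH 12W arrays belong to them. The arrays left out had been chosen by their high Th, Dbh, Npy and Snap25, and the other genes were called on the same arrays, so smaller differences without them follow in part from that choice and the values are a description. For CIH 12W vs. Nor 12W, where a difference was counted at p under 0.05 without adjustment and at more than 1.1-fold, 166 of the 204 probe sets of the snoRNA region were lower in CIH 12W on all arrays, against 6.99% of all probe sets. Without the 7 ganglion-rich arrays 0 of 204 were lower (6.65% of all), with 1 Nor 12W array left, and with the ganglion-rich indicator as a covariate also 0 (5.13% of all). With the score itself as a covariate 80 were lower (5.33% of all). Without only the 5 strongest arrays 162 were lower (5.66% of all), and Nor 12W then held 3 arrays, 2 of them replicates 1 and 5 of the ganglion-rich class. None of the 204 passed after adjustment over all probe sets, in any of these fits by limma. Dbh and Snap25 are among the 4 genes that picked the arrays left out, so their smaller differences without those arrays restate that choice. Dbh differed by -4.37 ± 2.24 (SE) on all arrays, by 0.26 ± 0.33 without the 7 and by -1.19 ± 0.42 without the 5. Snap25 differed by -3.91 ± 2.07, -0.04 ± 0.24 and -0.95 ± 0.27 in the same order. Fabp7 differed by -3.61 ± 1.12 on all arrays (limma, adjusted p = 0.159) and by -0.50 ± 0.45 without the 7.

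For CIH 8W vs. Nor 8W, with 2 and 1 ganglion-rich arrays, Dbh differed by -0.56 ± 2.11 on all arrays and by -0.53 ± 0.22 without them. Npy differed by 0.25 ± 1.75 and 0.35 ± 0.51, and the snoRNA copy Gm22046 by 0.07 ± 1.56 and 0.10 ± 0.56. Gldn differed by -1.05 ± 0.43 on all arrays and by -0.33 ± 0.44 without them. CIH 12W vs. CIH 8W+Nor 4W holds no ganglion-rich array, and its differences were the same in both fits, Dbh at 0.10 with an SE of 2.36 on all arrays and of 0.21 without the 7. The 3 comparisons share arrays (CIH 12W stands in 2 of them) and are not independent.

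**Figure D5:**
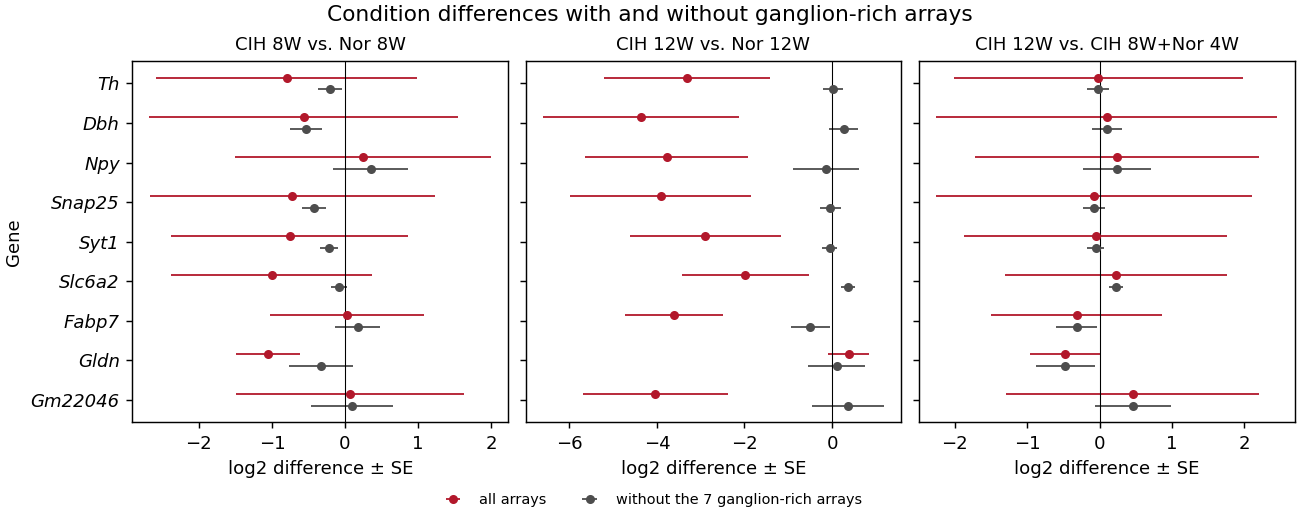
Log2 difference ± SE of 9 genes in 3 comparisons between conditions, on all 23 arrays (red) and without the 7 ganglion-rich arrays (grey). In CIH 12W vs. Nor 12W the neuronal genes, the glial gene Fabp7 and the snoRNA copy Gm22046 lie between -1.98 and -4.37 on all arrays and between -0.50 and 0.37 without the 7, where Nor 12W is a single array.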

How the data were processed

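Total RNA of 23 mouse aortas was hybridised to Clariom D arrays. The authors deposited log2 signals, 1 per gene-level probe set and array, normalised with the Transcriptome Analysis Console per the methods (Affymetrix Expression Console in the processing notes of the submitters). The summary method and genome build are not given in the sources used here, and no scan date or batch was found. The 6732 control probe sets were left out, and 65956 were kept without further normalisation. Background was the 95th percentile of 23 background probe sets on each array. Groups came from the labels, whereas the ganglion-rich class came from the measured signals, so p-values describe arrays chosen by those signals.

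The ganglion-rich class was compared with limma 3.58.1 in R 4.3.3, with the 5 groups and the class in the model, over 65952 probe sets (the 4 marker probe sets left out). A probe set was called at a Benjamini-Hochberg adjusted p under 0.05 if it also differed by more than 1.1-fold. The fit was tested on simulated data. Named genes were the 4 markers, up to 4 members of each list with the smallest p, neuronal or glial list members of the published top tables, the 20 single-symbol genes in no list with the highest differences among those called higher without overlap, and the 10 single-symbol genes in no list with the smallest p among those lower. Other genes in the text were chosen after their values were seen. A gene stands for its brightest probe set. Members and gene lists were chosen with earlier results of these data known. Alternatives changed the class threshold, markers, covariates, scaling, filters and arrays.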

Additional observations from a re-analysis of the deposited data

Results flagged for a closer look

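Nor 8W replicate 3 stood far from the other 6 ganglion-rich arrays for several neuronal genes, with log2 signals of 6.52 for Hand2, 6.93 for Tfap2b, 5.55 for Elavl4, 6.33 for Scn3a, 4.88 for Cacna1b and 5.29 for Tmem179, and a mean of 5.67 over the voltage-gated channels. Across the 3 conditions that hold both classes, the class difference itself differed for Hand2 (limma interaction, adjusted p = 0.0284), Scn3a (0.0216), Cacna1b (0.0220) and Tmem179 (0.0051). That of Avil, of the sensory neuron list, differed as well (limma interaction, adjusted p = 0.0326). Over all probe sets, 254 had an interaction adjusted p under 0.05 by limma, and only 1 of them was among the 254 called higher. Within Nor 8W, CIH 8W and Nor 12W the differences of Hand2 were 3.05, 0.36 and 0.50, and the Nor 8W value rests on that 1 array. The Nor 12W value rests on 1 array outside the class, so these interactions are not independent of the array that stood apart.

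In all, 24 of 316 sets of values held an array far from the rest relative to the spread of its set, where chance alone gives about 1 in 20. The others were as follows. Among the Nor 8W arrays outside the class, replicate 1 had 8.35 for Cdh19, 5.94 for Fabp7 and 3.27 for Cacna1b, replicate 4 had 3.15 for Elavl4 and replicate 5 a myelin mean of 5.05. In CIH 12W, replicate 4 had 3.64 for Ddc, 4.00 for Ret, 3.28 for Drp2 and 5.31 for the granule and peptide mean, replicate 1 had 5.08 for Isl1 and 3.57 for Nrcam, replicate 3 had 4.37 for Syp and 3.75 for Tmem179, and replicate 2 had 5.68 for Gm22851. In CIH 8W+Nor 4W, replicate 2 had 5.43 for Mal and 3.28 for Drp2, and replicate 3 a glial mean of 6.03. Some of these gaps were small and below background. The array nearest the flagged one had 3.298 for Drp2 in both groups, and 3.24 for Cacna1b in Nor 8W.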

How the results depend on the processing

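The main counts were 254 probe sets higher, 8 lower and 63 higher without a gene name from the snoRNA region. In that order they were 168, 5 and 10 over the 3 groups that hold ganglion-rich arrays, 410, 65 and 212 without the group covariate, 747, 31 and 549 at a threshold of 2, 744, 31 and 546 with a score from 3 other neuronal genes, which picked the same 5 arrays, 462, 0 and 265 with the score as a number, 203, 4 and 20 with array weights, 2619, 1716 and 2417 at an unadjusted p, and 224, 0 and 33 at a fold over 2. At a threshold of 0.5, with 9 arrays in the class, they were 0, 0 and 0 by limma (1729, 1644 and 1528 at an unadjusted p). A filter on dim probe sets left 1 lower. Correlations between arrays of the same replicate number ran from -0.32 to 0.63, so the numbers were not taken as pairs, and with the replicate block the counts were 169, 3 and 10, and 14 of the 15 called list genes, all but Stmn3, lost their call (limma, adjusted p = 0.0897 to 0.589). Leaving out 1 array gave 184 to 350 higher, 4 to 14 lower and 21 to 154 outside the region. Also leaving out the 12 unnamed probe sets with identifiers beside the region, an alternative chosen after seeing the data, gave 51 in place of 63, and 16 to 141 with 1 array left out. Chosen after seeing the data, leaving out the 2 ganglion-rich arrays nearest the threshold gave 200, 4 and 21, and leaving out Nor 12W gave 339, 8 and 148. The median of the ganglionic receptor list moved to 1.34 with the dim filter, which keeps probe sets above background on at least 4 arrays. Of the 16 receptor genes, 14 were not above background on the 16 other arrays. Those 14 can pass the filter only by their signal in the ganglion-rich arrays, so the higher median follows from the filter. The causes of the other changes were not tested.

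For CIH 12W vs. Nor 12W, 166 probe sets of the region were lower on all arrays, 0 without the ganglion-rich arrays, 0 with their indicator as covariate, 162 without the 5 strongest and 80 with the score as covariate. Several single-gene differences changed sign, and those of Th, Dbh, Npy and Snap25, which set the class, are a description. Without the ganglion-rich arrays, Th was 0.030, Dbh 0.26 and Slc6a2 0.36. With the indicator, Th was 1.34, Dbh 1.50, Npy 0.91, Snap25 1.33, Slc6a2 1.45, Syt1 1.32 and Gldn -0.017. With the score, Th was 0.29, Snap25 0.055, Slc6a2 0.75 and Syt1 0.40. For CIH 8W vs. Nor 8W, the indicator gave -0.92 for Npy and -0.65 for Fabp7. Signals near background limit Stmn3, Syp, Hand1, Ackr1, Rtn1 and the weakest snoRNA copies. For Nor 12W, the 1 array outside the class limits every within-group value.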
